A study of Mus musculus with 4 samples.

Results

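Retinoic acid is made, broken down and sensed in cells by the products of a small number of genes, and 10 of them were followed in the developing mouse urogenital sinus: *Aldh1a1*, *Aldh1a2* and *Aldh1a3* for synthesis, *Cyp26a1* and *Cyp26b1* for breakdown, *Rara*, *Rarb* and *Rarg* as receptors, and *Crabp1* and *Crabp2* as intracellular binding proteins. They were chosen by symbol, and all 10 were found among the 25819 rows of the expression table, once each. The urogenital sinus (UGS) is the embryonic tissue from which the prostate, bladder neck and urethra form. Whole UGS was dissected from male embryos at the embryonic stages E16.5 and E18.5, from wild type and *Tbx18Gfp/Gfp* embryos, all of mouse lines kept on a B6C3-F1 hybrid background. In the mutants both copies of *Tbx18*, a T-box transcription factor gene of UGS mesenchyme, carry a GFP insertion that makes a null allele in every cell that would use the gene. RNA from 3 embryos was pooled into 1 library for each genotype and stage, which makes 4 libraries, with no replicates. No test between genotypes or stages was run, and the differences given here are differences between single libraries.

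Retinoic acid is made from vitamin A (retinol), which is oxidised first to retinal by alcohol and retinol dehydrogenases and then to retinoic acid by the ALDH1A enzymes. In the nucleus it binds RAR proteins, which pair with RXR proteins at response elements in DNA and switch genes on, while CYP26 enzymes oxidise it and so limit where it acts. The CRABP proteins carry it in the cytoplasm. In the urogenital tract, retinoic acid is known to act between mesenchyme and epithelium and to favour the growth and patterning of the bladder, urethra and reproductive ducts.

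Levels were read as FPKM, the number of sequenced fragments scaled to the length of the transcript and to the number of mapped reads of the library. It is corrected for transcript length, so that levels of different genes can be set side by side. The 4 libraries held an estimated 64000000, 55700000, 29100000 and 52400000 mapped reads, in the order E16.5 wild type, E16.5 mutant, E18.5 wild type and E18.5 mutant, which is the order of all values given by library here. Intervals beside levels and ratios are 95% exact intervals of the estimated read numbers and cover counting error only, not the spread between embryos. The E18.5 wild type library stood apart from the other 3. With it as one side, 2657 rows differed 2-fold between genotypes at E18.5 and 2885 between stages in wild type, against 244 rows between genotypes at E16.5 and 282 between stages in the mutant. Across rows, the log2 ratio in the comparisons with this library was associated with transcript GC content, with a Spearman coefficient of 0.44 between genotypes at E18.5 and -0.50 between stages in wild type, against 0.02 between genotypes at E16.5 and -0.23 between stages in the mutant, which do not include it. Of the comparisons below, those between genotypes at E18.5 and between stages in wild type rest on this library. The label of the tissue was checked against its markers: all 13 markers of urogenital epithelium and all 12 of urogenital mesenchyme were at 1 FPKM or more in every library, and all 6 kidney markers were under 1 FPKM. *Tbx18* itself was at 3.47, 2.50, 3.16 and 2.93 FPKM, and since RNA of the targeted locus was not separated from the normal transcript, this value does not check the genotype.

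The synthesis genes had the highest summed level of the 4 groups, the breakdown genes the lowest. The 3 *Aldh1a* genes summed to 134, 136, 113 and 103 FPKM in the 4 libraries. The 3 receptors followed with 65.7, 63.8, 41.2 and 52.4 FPKM. The 2 binding proteins summed to 50, 51.1, 27.7 and 35.9 FPKM. The *Cyp26* pair reached 3.70, 2.26, 2.08 and 2.02 FPKM. *Aldh1a2* was the highest of the 10 genes in all 4 libraries and the *Cyp26* pair were the lowest in all 4. In bulk tissue, fewer cells that use a gene and less RNA per cell cannot be told apart, and this holds for every level and ratio given here.

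**Figure D1:**
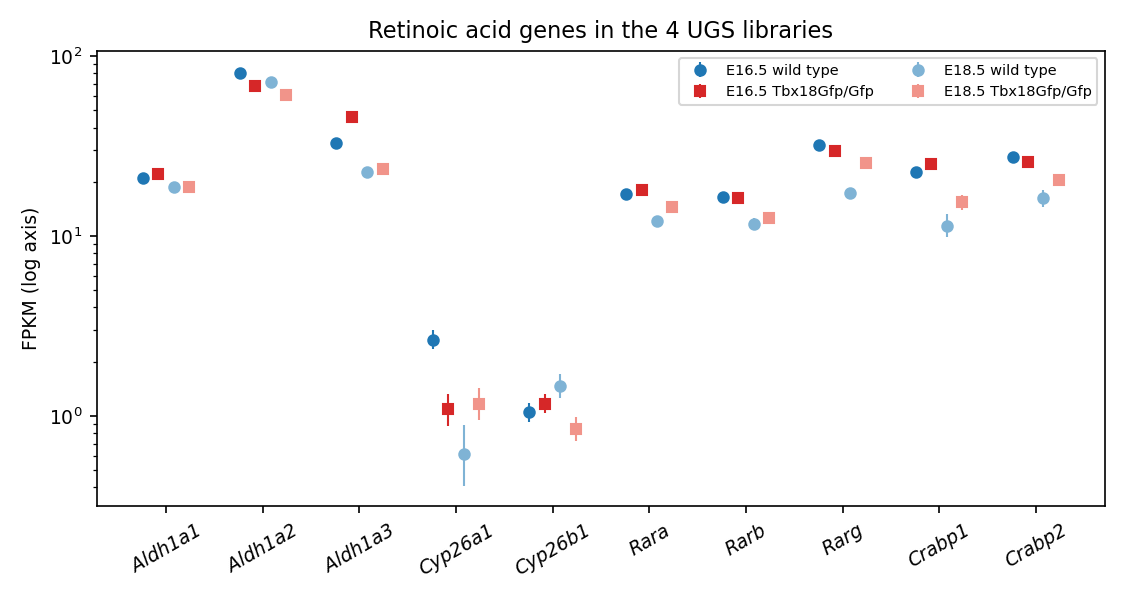
FPKM of the 10 retinoic acid genes on a log axis, 1 point per library (circles wild type, squares *Tbx18Gfp/Gfp*, dark E16.5, pale E18.5), with bars for the 95% counting interval. *Aldh1a2* lay at 60.7 to 80.5 FPKM in every library, and *Cyp26a1* and *Cyp26b1* lay between 0.615 and 2.65 FPKM.

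*Aldh1a2* encodes the main retinoic acid synthesising enzyme of embryonic mesenchyme. In the deposited table it lies on chromosome 9 from 71063596 to 71144050 (the build is not given in the sources used here, and this holds for all gene positions below). Its level was 80.5, 67.7, 71.4 and 60.7 FPKM. The mutant library was the lower one at both stages. The log2 ratio of mutant to wild type was -0.25 at E16.5 (counting interval -0.29 to -0.21) and -0.23 at E18.5 (-0.29 to -0.18). It had the same sign under every planned scaling at both stages, and the E18.5 value was -0.52 when centred on the median of all rows, -0.60 with the length and GC trend subtracted and -0.66 with equal column sums. Of all rows tested at E16.5, 9.51% had a lower ratio than *Aldh1a2*, and at E18.5 18.6% did.

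*Aldh1a3* encodes a second retinal dehydrogenase, known from epithelia (chromosome 7, 73535778 to 73572363). Its level was 32.9, 46.0, 22.6 and 23.6 FPKM. The E16.5 mutant library was the highest of the 4, and the E18.5 libraries were the lowest and close to each other. At E16.5 the mutant was 1.40-fold higher, a log2 ratio of 0.48 (0.44 to 0.53), and 97.8% of tested rows had a lower ratio. At E18.5 the log2 ratio was 0.06 (-0.02 to 0.14), an interval that includes 0. Markers of Wolffian duct and seminal vesicle, which lie next to the UGS, summed to 61.4, 78.2, 64.2 and 66.4 FPKM. The 5 of 8 that passed the filter were all higher in the E16.5 mutant, with a median log2 ratio of 0.60. Of all rows tested there, 45.7% were lower. Most of the sum came from *Hoxa10* at 35.6, 43.4, 29.2 and 38.7 FPKM and *Hoxd10* at 14.3, 16.6, 16.1 and 15 FPKM. *Svs4* and *Svs5* were at 0 in every library, so that the sum is not a measure of the whole list. The summed level of these markers was highest in the library where *Aldh1a3* was highest. Between stages in wild type they did not follow *Aldh1a3*. There 4 of the 5 were higher at E18.5, with a median log2 ratio of 0.56, and *Aldh1a3* was lower, at -0.54. Of all rows tested in that comparison, 72.3% were lower. The part of these markers in the result was not tested. The epithelial markers of the UGS summed to 879, 731, 859 and 1020 FPKM, lowest in the E16.5 mutant.

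*Aldh1a1*, the third retinal dehydrogenase (chromosome 19, 20676472 to 20717952), was the steadiest of the 10 genes. Its level was 21.0, 22.1, 18.8 and 18.7 FPKM, so that the highest library was 1.18-fold above the lowest. At E16.5 the log2 ratio of mutant to wild type was 0.07, or -0.03 with equal column sums, and at E18.5 it was -0.00, and the counting intervals of both deposited ratios include 0. The E18.5 value depended on the scaling, and was -0.29 when centred on the median of all rows and -0.43 with equal column sums.

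Within the *Aldh1a* group, the share of *Aldh1a3* varied most between libraries. Of the summed FPKM, *Aldh1a2* took 59.9%, 49.8%, 63.3% and 58.9%, and *Aldh1a3* took 24.5%, 33.9%, 20.1% and 22.9%. The share of *Aldh1a1* lay between 15.6% and 18.2%. The ratio of *Aldh1a2* to *Aldh1a3* within a library does not depend on how the libraries are scaled to each other. It was 2.44 (2.37 to 2.52), 1.47 (1.43 to 1.52), 3.16 (2.99 to 3.33) and 2.57 (2.47 to 2.68). It was thus lower in the mutant than in wild type at both stages, with counting intervals that do not overlap, and the gap between genotypes was wider at E16.5.

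**Figure D2:**
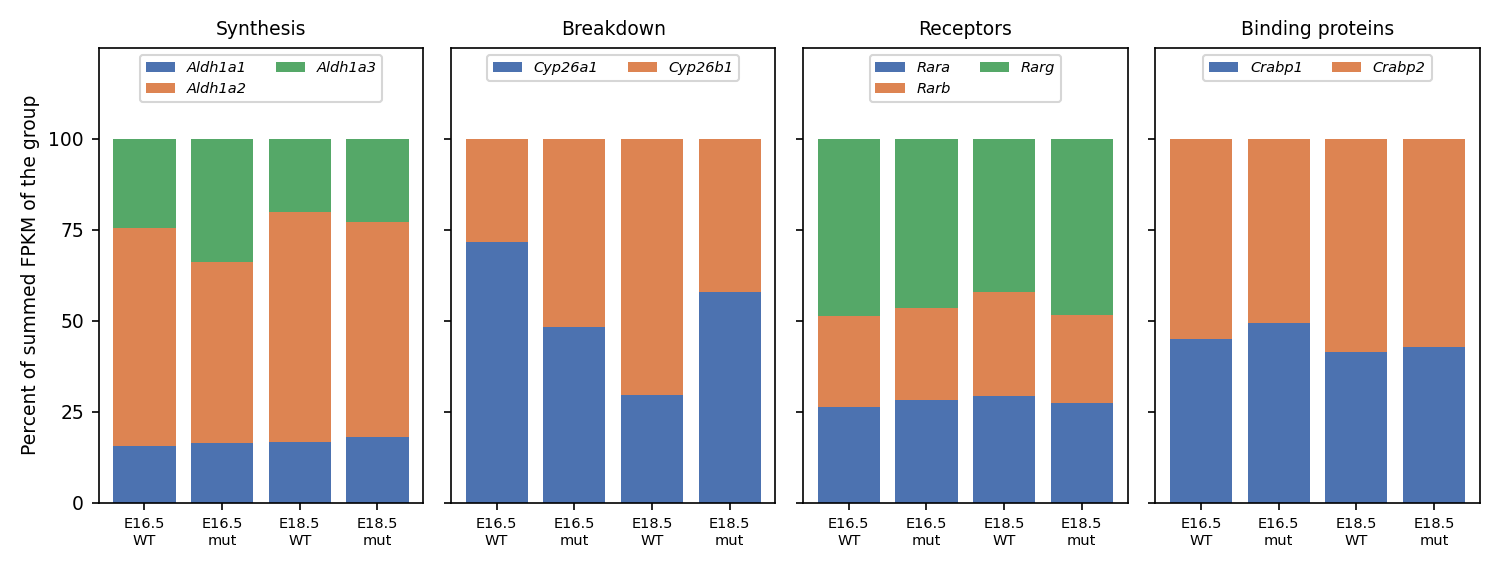
Percent of the summed FPKM of each group taken by each of its genes, 1 bar per library (WT, wild type; mut, *Tbx18Gfp/Gfp*). In the synthesis panel *Aldh1a3* took 33.9% in the E16.5 mutant against 20.1% to 24.5% elsewhere, and in the breakdown panel *Cyp26a1* took from 29.6% to 71.6%.

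*Cyp26a1* had the widest range of the 10 genes. It encodes a retinoic acid hydroxylase whose own transcription is switched on by retinoic acid (chromosome 19, 37772298 to 37776026). Its level was 2.65 (2.35 to 2.99), 1.09 (0.881 to 1.33), 0.615 (0.409 to 0.889) and 1.17 (0.948 to 1.43) FPKM, from an estimated 268, 96, 28 and 97 reads. E16.5 wild type was high and E18.5 wild type low, and both mutant libraries lay between them with intervals that overlap each other. At E16.5 the mutant was 2.44-fold lower, a log2 ratio of -1.29 (-1.63 to -0.94), with 0.556% of tested rows lower still. At E18.5 the mutant was 1.90-fold higher, a log2 ratio of 0.93 (0.32 to 1.60), in the comparison with the library that stood apart, and there 82.3% of tested rows had a lower ratio. The E18.5 ratio was 0.64 with the ratios centred on the median of all rows and 0.33 with the length and GC trend subtracted.

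*Cyp26b1* encodes the related hydroxylase that is best known from embryonic gonads and limbs (chromosome 6, 84521408 to 84543902). Its level was 1.05, 1.17, 1.47 and 0.850 FPKM, from an estimated 265, 257, 168 and 176 reads. E18.5 wild type was the highest library and the E18.5 mutant the lowest. The log2 ratio of mutant to wild type was 0.15 at E16.5 (-0.10 to 0.41), an interval that includes 0, and -0.79 at E18.5 (-1.10 to -0.47), where the mutant was 1.72-fold lower and 4.53% of tested rows were lower still. With the ratios centred on the median of all rows, the E18.5 value was -1.07, past 2-fold.

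The order of the *Cyp26* pair changed from library to library. The ratio of *Cyp26a1* to *Cyp26b1* within a library was 2.53 (2.13 to 3.01), 0.931 (0.732 to 1.19), 0.420 (0.269 to 0.625) and 1.37 (1.07 to 1.78). *Cyp26a1* was thus the higher of the pair in E16.5 wild type and the E18.5 mutant, *Cyp26b1* in E18.5 wild type, and in the E16.5 mutant the interval includes 1. Of 8 testis markers, 7 were under 1 FPKM in all libraries.

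The promoters of *Cyp26a1* and *Rarb* are shown because retinoic acid is known to switch both genes on through a direct repeat in DNA that RAR and RXR proteins bind. They are taken from the RefSeq annotation of GRCm38.p6, from 250 bases before to 50 bases after the transcription start, on the strand of the gene. They were searched on both strands for pairs of the motif AGTTCA or its close variants AGGTCA and also GGTTCA and likewise GGGTCA, in the same direction and in any combination, 5 bases apart (DR5) or 2 bases apart (DR2). Capitals mark the repeat. The *Cyp26a1* window is chr19:37697558-37697857 on the plus strand, and its repeat lies 32 to 16 bases before the start and reads on the opposite strand. The *Rarb* window is chr14:16575427-16575726 on the minus strand, and its repeat lies 53 to 37 bases before the start.
Cyp26a1: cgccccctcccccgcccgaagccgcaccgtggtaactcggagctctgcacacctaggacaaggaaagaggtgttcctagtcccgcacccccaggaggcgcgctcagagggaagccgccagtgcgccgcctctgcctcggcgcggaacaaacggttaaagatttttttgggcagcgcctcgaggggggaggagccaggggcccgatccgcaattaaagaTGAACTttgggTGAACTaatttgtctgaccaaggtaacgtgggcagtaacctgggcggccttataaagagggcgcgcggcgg
Rarb: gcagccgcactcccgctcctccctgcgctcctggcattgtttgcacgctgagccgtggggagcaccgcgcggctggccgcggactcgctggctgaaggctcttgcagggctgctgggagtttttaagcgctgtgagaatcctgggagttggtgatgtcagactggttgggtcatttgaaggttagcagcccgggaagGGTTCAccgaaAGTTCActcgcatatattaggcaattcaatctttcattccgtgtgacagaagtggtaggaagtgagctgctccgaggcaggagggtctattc

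DR5 repeats were rare: 32 of 32851 promoter windows, or 0.0974%, held one, and DR2 repeats were in 88 windows, or 0.268%. Of the 10 genes, 8 had promoter windows in the reference, 13 windows in all. A DR5 was found in *Cyp26a1* and *Rarb* and a DR2 in none. Both genes with the repeat were highest in E16.5 wild type and lowest in E18.5 wild type. This order was not particular to them, since *Rarg*, in which no repeat was found, had the same highest and lowest libraries. Of all rows tested between stages in wild type, 72.3% were lower at E18.5. The size of the range differed, since *Cyp26a1* ranged 4.31-fold over the libraries and *Rarb* 1.40-fold. For *Rarb* the counting interval of the ratio between genotypes includes 0 at both stages. A match of letters is a description of the sequence and not a binding site shown by these data.

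*Rarg* was the highest of the receptors in all 4 libraries, at 1.48 to 2.01 times the level of *Rarb*, the lowest of them. *Rarg*, the receptor best known from epithelia and cartilage (chromosome 15, 102065371 to 102087914), was at 32.1, 29.6, 17.3 and 25.4 FPKM. E18.5 wild type was the low library and E16.5 wild type the high one. The log2 ratio of mutant to wild type was -0.12 (-0.18 to -0.06) at E16.5. At E18.5 it was 0.55 (0.46 to 0.64). The E18.5 value was 0.26 when centred on the median of all rows and turned to -0.18 with the length and GC trend subtracted. The transcript GC content of *Rarg*, 58.5%, is higher than that of 91.7% of measured genes.

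*Rara*, the most widely used of the receptors (chromosome 11, 98799010 to 98836256), was at 17.2, 18, 12.1 and 14.4 FPKM. The E18.5 libraries were both below the E16.5 libraries. At E16.5 the log2 ratio was 0.07, or -0.04 with equal column sums, and at E18.5 it was 0.25, or -0.04 when centred on the median of all rows and -0.51 with the length and GC trend subtracted. The transcript GC content of *Rara* is above that of 94.2% of measured genes. *Rarb*, which retinoic acid itself induces through the repeat printed above (chromosome 14, 17263353 to 17407724), was at 16.4, 16.2, 11.7 and 12.6 FPKM. At E16.5 its log2 ratio was -0.02, and at E18.5 it was 0.11, turning to -0.18 when centred, and both counting intervals of the uncentred ratios include 0. *Rarb* and *Top2b*, a topoisomerase gene on the opposite strand, share 1793 of the 3392 exon bases of *Rarb* in the GENCODE M21 annotation. In the deposited table the loci of the pair do not overlap and lie 51 bases apart. *Top2b* was at 50, 47.4, 48.5 and 46.8 FPKM. The reads were aligned at the default options of TopHat, and whether Cufflinks used strand is not given in the sources used here, so that reads of the shared bases cannot be assigned with certainty, and the *Rarb* levels are uncertain to that extent. The gene model *Gm48162* also overlaps *Rarb* on the opposite strand. The exons of the other 9 genes overlap no other gene in that annotation.

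Within the receptor group the shares moved little. *Rarg* took 48.8%, 46.4%, 42.1% and 48.4% of the summed FPKM, *Rara* 26.2% to 29.4% and *Rarb* 24.1% to 28.5%. The ratio of *Rarg* to *Rara*, free of scaling between libraries, was 1.86 (1.78 to 1.95), 1.64 (1.56 to 1.72), 1.43 (1.32 to 1.56) and 1.76 (1.67 to 1.86). It was lower in the mutant at E16.5 and higher in the mutant at E18.5, and the intervals of the genotypes do not overlap at either stage. The ratio of *Rarg* to *Rarb* was 1.95 (1.87 to 2.04), 1.83 (1.74 to 1.92), 1.48 (1.36 to 1.60) and 2.01 (1.90 to 2.12), and the intervals of the genotypes overlap at E16.5 and not at E18.5. Ratios within a library are not free of the trend with GC content, and the GC content of *Rarb* is above that of only 42% of measured genes. With the length and GC trend subtracted, the E18.5 log2 ratio of mutant to wild type was -0.18 for *Rarg* and -0.084 for *Rarb*. The E18.5 difference between genotypes in *Rarg* to *Rarb* thus changed direction.

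The binding protein genes were close to each other in level in each library. *Crabp1* (chromosome 9, 54612615 to 54620916) encodes the form known from neural crest and mesenchyme, and was at 22.6, 25.2, 11.4 and 15.4 FPKM. *Crabp2* (chromosome 3, 87752615 to 87757294) encodes the form that hands retinoic acid to RAR proteins, and was at 27.5, 25.9, 16.2 and 20.5 FPKM. Both E18.5 libraries lay below both E16.5 libraries for each gene. At E16.5 the log2 ratio of mutant to wild type was 0.16 for *Crabp1* (0.02 to 0.30) and -0.08 for *Crabp2* (-0.20 to 0.04). At E18.5 it was 0.43 for *Crabp1* (0.19 to 0.68) and 0.34 for *Crabp2* (0.15 to 0.52), and both turned negative with the length and GC trend subtracted, to -0.38 and -0.13, *Crabp2* also with equal column sums, at -0.09. The ratio of *Crabp2* to *Crabp1* was 1.22 (1.12 to 1.33), 1.03 (0.936 to 1.13), 1.42 (1.19 to 1.70) and 1.33 (1.19 to 1.5), and the intervals of the genotypes overlap at both stages.

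For several neighbours in the order of levels, the counting interval of their ratio includes 1. In E16.5 wild type these were *Aldh1a3* and *Rarg*, *Crabp1* and *Aldh1a1*, and *Rara* and *Rarb*. In the E16.5 mutant they were *Crabp2* and *Crabp1*, and the *Cyp26* pair. In E18.5 wild type, the shallowest library, *Aldh1a1* overlapped *Rarg*, *Rarg* overlapped *Crabp2*, *Rara* overlapped *Rarb* and *Rarb* overlapped *Crabp1*. In the E18.5 mutant they were *Crabp1* and *Rara*.

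Read as a group between genotypes at E16.5, the 10 genes did not lie to one side. All 10 passed the filter of at least 1 FPKM in either library, 5 being higher in the mutant and 5 lower, and their median log2 ratio was 0.02 beside 0.01 over all 14761 rows tested. Of those rows, 45.7% were lower. Only *Cyp26a1* was past 2-fold, in the lower direction, where 1.17% of all tested rows lay, and no gene was past 2-fold in the higher direction, where 0.481% lay. At 1.5-fold the counts were the same, 1 lower and 0 higher, beside 2.72% of rows lower and 1.44% higher.

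At E18.5, the mutant library had 7 of the 10 genes at a higher and 3 at a lower level. This was close to the share over all 14733 rows tested, of which 30.5% were lower. The median log2 ratio was 0.18 beside 0.31 over all rows tested. No gene was past 2-fold, beside 15.1% of rows higher and 2.89% lower. Rows past 2-fold were higher in the mutant in 84.0% of cases as deposited, 60.1% when centred on the median and 40.6% with the length and GC trend subtracted. At 1.5-fold *Cyp26a1* was higher and *Cyp26b1* lower, beside 33.2% of rows higher and 7.60% lower. The sign of the ratio was the same under every planned scaling for *Aldh1a1*, *Aldh1a2*, *Cyp26a1* and *Cyp26b1*, and turned under at least 1 scaling for the other 6.

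**Figure D3:**
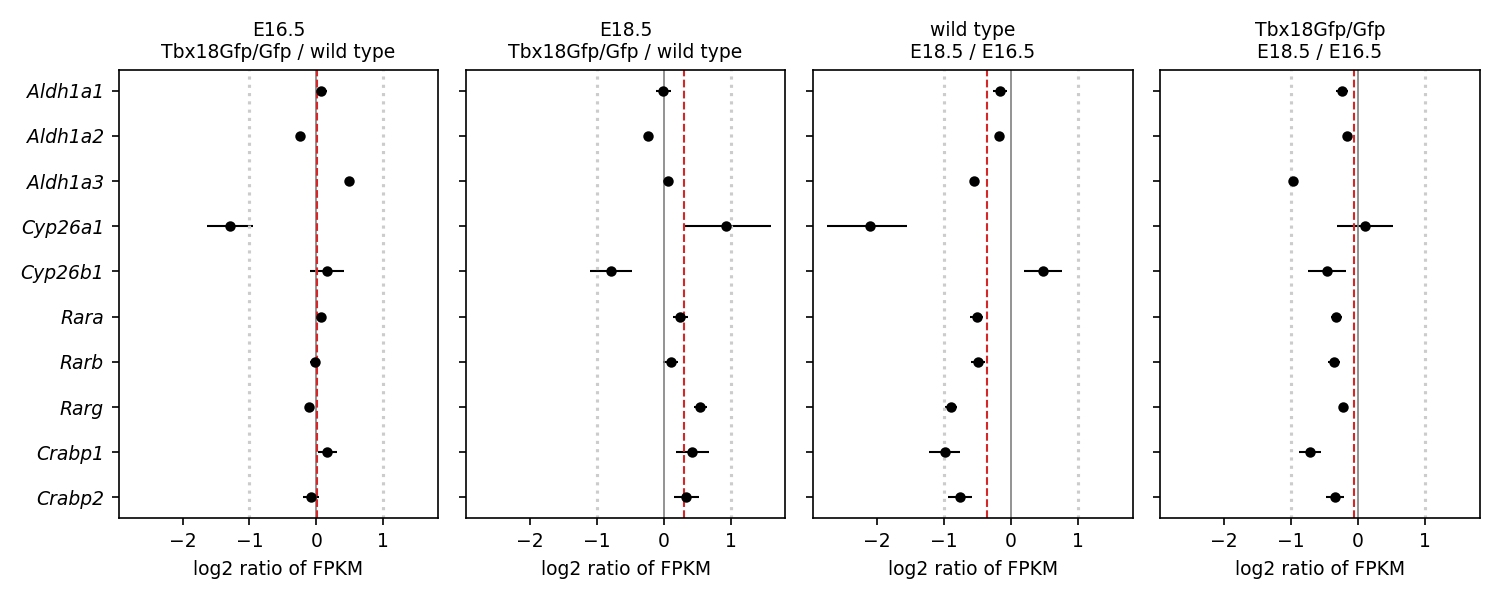
Log2 ratios of FPKM for the 10 genes in the comparisons between genotypes (mutant over wild type, left pair of panels) and between stages (E18.5 over E16.5, right pair), with bars for the 95% counting interval, a dashed line at the median of all tested rows and dotted lines at 2-fold. *Cyp26a1* lay at -1.29 and 0.93 between genotypes and at -2.11 between stages in wild type, and the other 9 genes lay inside the 2-fold lines in all 4 panels.

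**Figure D4:**
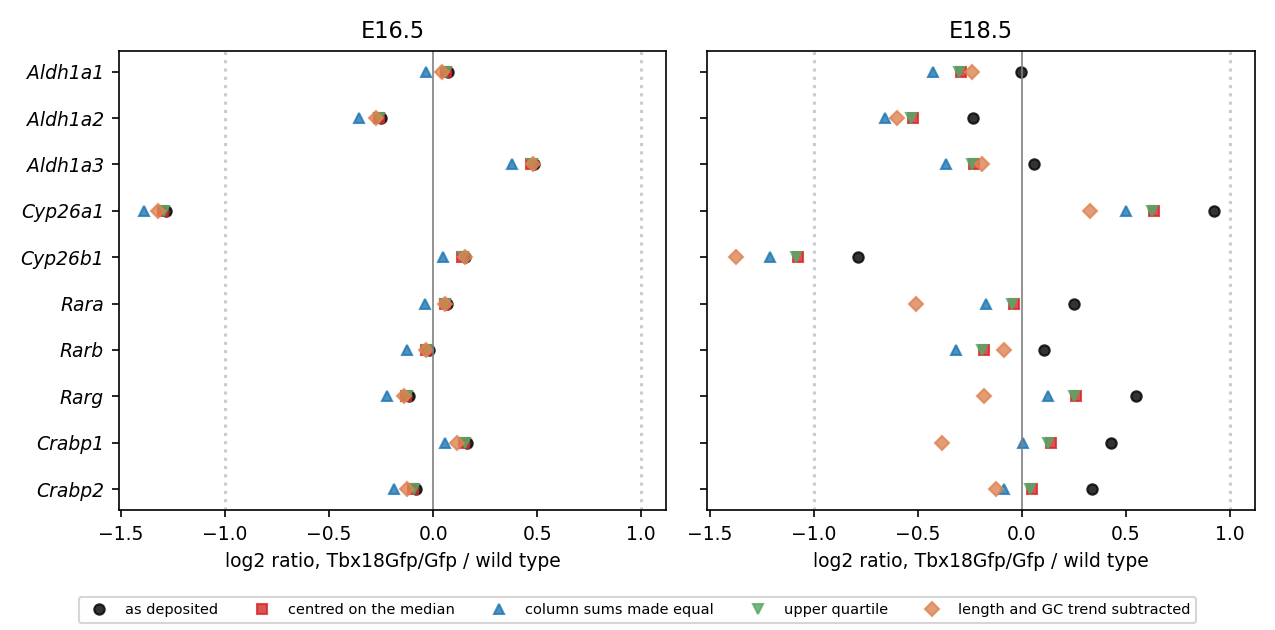
Log2 ratios of mutant to wild type FPKM for the 10 genes at E16.5 (left) and E18.5 (right) as deposited and under 4 other ways of scaling (symbols), with dotted lines at 2-fold. At E16.5 the symbols of a gene lie close together, and at E18.5 those of *Rara*, *Rarb*, *Rarg*, *Crabp1*, *Crabp2* and *Aldh1a3* lie on both sides of 0.

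Between stages, the comparisons in wild type and in the mutant each share libraries with the genotype comparisons, so that the same library enters several of the values. In wild type, 9 of 10 genes were lower at E18.5 than at E16.5, with a median log2 ratio of -0.52 beside -0.35 over all 14807 rows tested, of which 72.3% were lower. *Cyp26a1* was 4.31-fold lower, a log2 ratio of -2.11 (-2.74 to -1.56), and was the only 1 of the 10 past 2-fold, where 16.8% of rows lay in the lower and 2.70% in the higher direction. *Crabp1* was close to that threshold at 1.97-fold lower. At 1.5-fold *Cyp26a1*, *Crabp1*, *Rarg* and *Crabp2* were lower, beside 35.9% of rows lower and 6.80% higher. *Cyp26b1* was the only 1 of the 10 that was higher, at a log2 ratio of 0.48 (0.19 to 0.77). The signs of *Aldh1a1*, *Aldh1a2* and *Rara* turned under at least 1 scaling.

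In the mutant, 9 of 10 genes were lower at E18.5 as well, with a median log2 ratio of -0.33 beside -0.06 over all 14713 rows tested, of which 64.7% were lower. This comparison does not include the library that stood apart, and all 10 genes kept 1 direction under every planned scaling. *Aldh1a3* was 1.95-fold lower, a log2 ratio of -0.96 (-1.02 to -0.91), with 0.578% of tested rows lower still. *Crabp1* was 1.64-fold lower, a log2 ratio of -0.71 (-0.88 to -0.55), with 1.09% of rows lower still. These were the only 2 genes past 1.5-fold, beside 1.68% of rows lower and 3.00% higher, and none was past 2-fold, where 0.571% of rows lay in the lower and 1.35% in the higher direction. *Cyp26a1* was the only 1 of the 10 that was higher, at a log2 ratio of 0.10 (-0.32 to 0.53), an interval that includes 0. *Cyp26b1* was at -0.46 (-0.74 to -0.18).

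The steps before and after the 10 genes were read from lists of pathway genes. Of 11 genes of retinol uptake, transport and storage, 6 passed the filter at E16.5 and 7 in each other comparison. *Stra6*, the membrane receptor for retinol uptake, was at 25.9, 30.1, 17.9 and 18.3 FPKM, in the same order of libraries as *Aldh1a3*. *Rbp4*, the retinol carrier of plasma, was at 7.49, 7.37, 9.14 and 8.98 FPKM. *Dgat1*, which esterifies lipids and retinol, was at 7.47, 7.42, 3.08 and 7.09 FPKM, low in the library that stood apart. Between genotypes, *Ttr* was past 2-fold at E16.5 and *Rbp7* and *Dgat1* at E18.5. These were all higher in the mutant and were named after their values were seen. Of all tested rows, 0.481% were past 2-fold higher at E16.5 and 15.1% at E18.5. The medians were 0.07 and 0.04 on the log2 scale, beside 0.01 and 0.31 over all tested rows. The E18.5 median was -0.25 when centred on the median of all rows.

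Of 16 genes of retinol and retinal interconversion, 11 passed the filter. *Adh1*, an alcohol dehydrogenase that acts on retinol, was at 60.1, 58.9, 126 and 74.0 FPKM. *Dhrs3*, which returns retinal to retinol, was at 53.3, 48.5, 52.5 and 43.3 FPKM. *Adh5* was at 50.7, 56.1, 28.9 and 54.4 FPKM. *Rdh10*, which makes most of the retinal of the embryo, was at 23.6, 22.1, 16.7 and 21.5 FPKM. None was past 2-fold between genotypes at E16.5, and at E18.5 only *Rdh13* was, higher in the mutant and named after its values were seen. The shares of all tested rows past 2-fold were 0.481% higher and 1.17% lower at E16.5, and 15.1% higher and 2.89% lower at E18.5. The medians were 0.02 and 0.36 on the log2 scale, beside 0.01 and 0.31 over all tested rows. The E18.5 median was 0.07 when centred on the median of all rows. Of 4 further breakdown enzymes only *Cyp2s1* passed, at 1.60, 1.87, 2.92 and 1.89 FPKM, above both *Cyp26* genes in 3 of the 4 libraries.

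All 13 genes of a list of RXR genes and coregulators, which also holds *Fabp5* and *Ppard*, passed the filter. *Fabp5*, which can carry retinoic acid to another nuclear receptor, was at 83.4, 77.3, 48.3 and 87.5 FPKM. *Kdm1a*, a histone demethylase, was at 38.0, 36.3, 24.9 and 32.0 FPKM. *Ncor1*, a corepressor of unliganded receptors, was at 22.5, 21.7, 32.3 and 21.0 FPKM. *Rxra*, the RAR partner, was at 23.7, 23.4, 14.1 and 20.4 FPKM, lowest in E18.5 wild type, as *Rarg* was. At E16.5, the mutant had 2 at a higher and 11 at a lower level, none past 2-fold, beside 45.7% of all tested rows lower. The median was -0.07 on the log2 scale, beside 0.01 over all tested rows. At E18.5, 8 were higher and 5 lower, beside 30.5% of all tested rows lower. The E18.5 median was 0.07, beside 0.31 over all tested rows, or -0.22 when centred. *Rxrb* alone was past 2-fold at E18.5, at 5.35 FPKM in wild type and 16.1 in the mutant, a direction that held 15.1% of all tested rows.

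Genes known to respond to retinoic acid were read from a further list. Of 26 such genes, among them *Cyp26a1*, *Rarb* and *Crabp2*, 19 passed the filter. At E16.5 the mutant had 10 at a higher and 9 at a lower level, with a median log2 ratio of 0.0021. Over all rows tested there the median was 0.01, and 45.7% were lower. *Cyp26a1* and *Tbx5*, a T-box gene of limb and heart, were past 2-fold, both lower, where 1.17% of all tested rows lay. *Tbx5* was at a low level, 3.39 FPKM in wild type and 1.39 in the mutant. At E18.5, 8 were higher and 11 lower with a median of -0.08, or -0.37 when centred on the median of all rows. *Rarres2*, which encodes the chemoattractant chemerin, was past 2-fold higher, where 15.1% of all tested rows lay. Of all rows tested at E18.5, 30.5% were lower in the mutant as deposited. Between stages in the mutant 5 were higher and 14 lower at E18.5, with a median of -0.14. Over all rows tested there the median was -0.06, and 64.7% were lower. In wild type 8 were higher and 11 lower, with a median of -0.02, or 0.31 when centred. Over all rows tested there the median was -0.35, and 72.3% were lower. *Rarres2* was at 43.0, 48.7, 39.8 and 103 FPKM, high in the E18.5 mutant only. *Meis2*, a homeobox gene, was at 43.8, 45.0, 66.3 and 40.9 FPKM, high in E18.5 wild type.

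The makeup of the dissected tissue differed between libraries as well. Smooth muscle markers summed to 1140, 594, 1310 and 3610 FPKM. Skeletal muscle markers summed to 755, 314, 378 and 753 FPKM, and all 7 were past 2-fold lower in the mutant at E16.5, where 1.17% of all tested rows lay. At E18.5 the sum was higher in the mutant, but 3 markers were higher and 4 lower. Their median log2 ratio was -0.31, beside 0.31 over all tested rows. Most of the rise in the sum came from *Acta1*, at 110 FPKM in E18.5 wild type and 455 in the E18.5 mutant. Neuron and glia markers summed to 440, 354, 274 and 362 FPKM, 7 of 8 being lower in the mutant at E16.5, where 45.7% of all tested rows were lower. These sums move with some of the same libraries as the retinoic acid genes, and their part in the ratios was not tested. Urogenital mesenchyme markers summed to 2410, 2470, 2150 and 2870 FPKM, mesothelium markers to 221, 200, 186 and 198 FPKM, endothelium markers to 92.7, 105, 111 and 99.8 FPKM, and leukocyte markers to 45.4, 56.6, 45.4 and 56.4 FPKM. Most of the mesothelium sum came from *Krt19*, at 178, 154, 134 and 147 FPKM, which is also on the list of urogenital epithelium. At E16.5 that sum was lower in the mutant, though 5 of the 7 mesothelium markers were higher and 2 lower. The sum is thus not a measure of the whole list.

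For the 3 genes with the highest mean level, the rows with the most similar profile over the 4 libraries were sought among 8612 rows with at least 5 FPKM in every library, by the root mean square difference of their centred log2 values. Nearest to *Aldh1a2* were *Sox10* and *Phox2a*, both at 0.02, and *Aplp1* at 0.03. *Sox10* was at 7.89, 6.76, 7.16 and 6.18 FPKM. Nearest to *Aldh1a3* were *Apoc1* at 0.03, *Stra6* at 0.11 and *Alad* at 0.14. *Apoc1* was at 14.1, 18.7, 9.24 and 9.62 FPKM. Nearest to *Rarg* were *Ptprf*, *Dcaf7* and *Sf3b4*, all at 0.02. The likeness rests on 4 libraries only, and shared directions follow from the way these rows were chosen.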

How the data were processed

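Whole male UGS RNA was pooled from 3 embryos per genotype and stage and made into stranded mRNA libraries, sequenced as single-end reads. Per the labels, the submitters' processing notes name CASAVA 1.8.2, Trimmomatic 0.30, TopHat2 2.1.0 and Cufflinks 2.2.1. The deposited values are FPKM, which the authors estimated per gene with Cufflinks from TopHat alignments at default options. The genome build and any further scaling are not given in the sources used here. The deposited FPKM columns sum to 460392, 495419, 375826 and 504136.

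Ratios were taken of the FPKM as deposited, for rows that reached 1 FPKM in either of the libraries compared, and counted at 2-fold and 1.5-fold. With 1 library per group no test, SD or p-value was computed within a stage, and no fit over both stages was run. Mapped reads were estimated from the FPKM of olfactory receptor genes of 1 exon that held a single read, 11 to 21 of them in each library, and each gene's reads from its FPKM, length and this depth. Reads of a gene were taken as independent molecules, which PCR copies are not. Counting intervals were exact Poisson intervals for levels and exact binomial intervals for ratios, at 95%. Transcript lengths and GC content came from GENCODE M21 and covered 93.7% of rows with 1 FPKM or more in any library. Promoter windows were those of RefSeq for GRCm38.p6.

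The 10 genes were selected by symbol and all were named. From each pathway list, up to 4 genes with the highest mean FPKM were taken, of which some are not reported here, and from the nearest profiles 3 rows for each of the 3 highest genes. Marker genes were given as list sums, with some genes of the Wolffian duct, skeletal muscle and mesothelium lists also named to show what these sums rest on. The genes and lists were chosen with earlier results of these data known. Alternatives were equal column sums, centring on the median, upper quartile scaling, pseudocounts of 0.1 and 1, no filter, a filter of 5 FPKM, subtraction of a length and GC trend (lowess, span 0.3), and, added after the data were seen, E16.5 wild type in place of E18.5 wild type. Calculations used Python 3.11.15, numpy 2.4.6, pandas 2.3.3, scipy 1.17.1 and statsmodels 0.14.6, and plots matplotlib 3.10.9. The steps were tested on simulated data.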

Additional observations from a re-analysis of the deposited data

Results flagged for a closer look

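*Cyp26a1* differed between genotypes in opposite directions at the 2 stages. At E16.5 its log2 ratio of mutant to wild type was -1.29, and at E18.5 it was 0.93, a gap of 2.21, and the counting intervals of both deposited ratios were clear of 0. The E18.5 value was 0.64 when centred on the median of all rows and 0.33 with the length and GC trend subtracted, where the interval moved by the same amount would include 0. *Rarg* did so by less, at -0.12 and 0.55, a gap of 0.67, and its E18.5 value turned to -0.18 with the length and GC trend subtracted. With 1 library per genotype and stage, the difference between stages was not tested for either gene.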

How the results depend on the processing

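The libraries carry no replicate numbers to pair them, and a fit with additive genotype and stage terms over the 4 libraries was not run. At E16.5 the count of genes past 2-fold was 1, and it was 0 with a pseudocount of 1 and with a filter of 5 FPKM, which leaves *Cyp26a1* out. At E18.5 it was 0, and 1 with equal column sums, centring, upper quartile scaling or the length and GC trend subtracted, where *Cyp26b1* was at -1.21, -1.07, -1.09 and -1.37. It was also 1 with E16.5 wild type in place of E18.5 wild type, where *Cyp26a1* was at -1.18, and 2 at 1.5-fold. Between stages in wild type the count was 1, and 0 with the filter of 5 FPKM, 2 with the trend subtracted, *Cyp26b1* then being at 1.20, and 4 at 1.5-fold. Between stages in the mutant it was 0, and 2 at 1.5-fold.

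The median log2 ratio of the 10 genes is given as deposited and then with equal column sums, centring, upper quartile scaling and the trend subtracted. At E16.5 it was 0.02, then -0.083, 0.010, 0.014 and 0.0048. At E18.5 it was 0.18, then -0.24, -0.11, -0.12 and -0.21, and it was 0.17 with a pseudocount of 1 and -0.39 with E16.5 wild type in place of E18.5 wild type. Between stages in wild type it was -0.52, then -0.23, -0.19, -0.18 and -0.10, and -0.50 with a pseudocount of 1. Between stages in the mutant it was -0.33, then -0.36, -0.27, -0.28 and -0.25, and -0.27 with a pseudocount of 1. The cause of these shifts was not tested. Centring moved all ratios by 0.29 at E18.5 and by -0.33 between stages in wild type, as the median of rows measured in both libraries. Rows past 2-fold between stages in wild type were higher in 13.9% of cases as deposited and in 39.8% when centred.

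Of the 10 genes, 8 kept 1 direction under all planned settings at E16.5, 4 at E18.5, 7 between stages in wild type and 10 between stages in the mutant. Depth limits *Cyp26a1* most, with 28 estimated reads in E18.5 wild type. The spread between embryos is unknown.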

Other observations

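Further genes of retinol storage and transport were at low levels and were read after their values were seen. *Lrat*, which stores retinol as esters, was at 0.405, 0.633, 1.29 and 1.41 FPKM in E16.5 wild type, E16.5 mutant, E18.5 wild type and E18.5 mutant, so that both E18.5 libraries lay more than 2-fold above the E16.5 library of their genotype. *Ttr*, the plasma carrier of the retinol and RBP4 complex, was at 1.12, 2.35, 4.34 and 3.67 FPKM, lowest in E16.5 wild type. *Rxrg*, the RXR of muscle and nervous tissue, was at 3.64, 2.24, 1.15 and 1.45 FPKM. *Rxrb* and *Rdh13* were at 5.35 and 2.2 FPKM in E18.5 wild type and at 16.1 to 17.6 and 7.72 to 8.12 FPKM in the other 3 libraries.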
